A study of Mus musculus with 10 samples.

Results

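The genes described here were 33 genes of the antioxidant, thioredoxin and metallothionein systems, chosen by gene symbol from the 54347 gene records of a poly A RNA-Seq table of interscapular brown adipose tissue (iBAT), a thermogenic fat pad lying between the scapulae. All 33 were in the table and all 33 passed the filter on low counts, which left 13732 genes for testing. The tissue came from 12-week-old mice on the C57BL/6N background, kept alone in the cold (4 °C) during the last 24 h of life. One group of 5 mice (replicates 1, 2, 4, 5 and 7) carried ΔGm15551, a germline CRISPR/Cas9 deletion that includes exon 1 of the lncRNA gene Gm15551, and the other group held 5 wild type litter mates (replicates 2, 3, 5, 6 and 7). The deletion was not limited to fat cells, and no mice kept at room temperature or thermoneutrality were part of the table. All differences below therefore concern genotype within cold-exposed tissue.

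These genes encode the enzymes that remove superoxide and peroxides and the systems that keep protein thiols reduced. Superoxide dismutases turn superoxide into hydrogen peroxide, which catalase, the glutathione peroxidases and the peroxiredoxins break down. Glutathione reductase and the thioredoxin reductases restore the reduced partners with electrons from NADPH. Many of the genes are targets of NRF2 (Nfe2l2), a transcription factor that KEAP1 holds at a low level until oxidants or electrophiles modify KEAP1, while the metallothioneins bind zinc and copper and are induced by metals through MTF1 and by glucocorticoids. In brown fat the systems are of interest because thermogenic mitochondria oxidise large amounts of fuel and because reactive oxygen species take part in thermogenic signalling.

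Gm15551 itself had 0 counts in all 5 ΔGm15551 mice, and 1, 2, 6, 7 and 0 counts in wild type replicates 2, 3, 5, 6 and 7. A count of 0 allows up to 3 counts per library, so the labels could be checked against the target only weakly. The total per mouse was 12593971 to 14438903 counts in ΔGm15551 and 9680976 to 15771170 in wild type. All 12 brown adipocyte markers were counted in every mouse, with a summed level of 14212 to 19502 CPM in ΔGm15551 and 13690 to 18451 in wild type. For sums over marker lists, CPM is the count scaled by the library total alone. For single genes, CPM is the count scaled to a common library size by TMM. Skeletal muscle markers summed to 31.2 to 2258 CPM in ΔGm15551 and to 38.1 to 3594 CPM in wild type, so that both groups held muscle-rich and nearly muscle-free samples. The sums of the adipocyte, red blood cell, macrophage, lymphocyte, endothelial and stromal marker lists also overlapped between the groups (smallest two-sided exact permutation p = 0.333 over the 8 lists, for the brown adipocyte list). Whether a low level of a transcript reflects fewer cells of a type or less RNA per cell cannot be told apart in whole tissue.

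The regulatory sequences upstream of the metallothionein genes and of Gclm are shown because Mt1 and Mt2 are the classical metal-responsive pair and because Gclm held both motifs searched. RefSeq promoters on GRCm38.p6, 250 bases before to 50 after the annotated start, were matched for 28 of the 33 genes (39 promoters). They were searched on both strands for the core of the antioxidant response element (ARE, TGACNNNGC), which NRF2 binds with its small MAF partners, and for the core of the metal response element (MRE, TGCACNC or TGCGCNC), which MTF1 binds. Capitals mark the MRE matches in the Mt2 promoter (chr8:94172368-94172667, + strand) and the Mt1 promoter (chr8:94178839-94179138, + strand) and the ARE match in the Gclm promoter (chr3:122245307-122245606, + strand).
Mt2: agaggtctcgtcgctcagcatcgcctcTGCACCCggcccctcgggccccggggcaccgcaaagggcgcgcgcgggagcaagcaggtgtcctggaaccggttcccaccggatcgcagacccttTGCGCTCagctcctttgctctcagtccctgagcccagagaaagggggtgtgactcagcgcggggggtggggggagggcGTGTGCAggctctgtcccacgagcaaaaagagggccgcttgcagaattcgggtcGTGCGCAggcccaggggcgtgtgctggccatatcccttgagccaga
Mt1: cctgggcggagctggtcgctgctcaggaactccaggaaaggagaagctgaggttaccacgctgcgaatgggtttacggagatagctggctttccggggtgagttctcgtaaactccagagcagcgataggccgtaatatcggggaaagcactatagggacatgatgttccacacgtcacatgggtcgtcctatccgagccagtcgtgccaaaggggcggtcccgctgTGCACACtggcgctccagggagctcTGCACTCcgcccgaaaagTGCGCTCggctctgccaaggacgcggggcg
Gclm: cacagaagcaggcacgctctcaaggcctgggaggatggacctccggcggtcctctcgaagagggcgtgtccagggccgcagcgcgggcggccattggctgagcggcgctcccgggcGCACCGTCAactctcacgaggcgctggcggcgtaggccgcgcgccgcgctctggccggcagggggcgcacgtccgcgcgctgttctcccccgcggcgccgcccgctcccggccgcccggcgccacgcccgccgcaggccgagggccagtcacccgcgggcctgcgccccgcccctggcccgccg

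The 4 MRE matches of Mt2 began at positions -223, -128, -50 and 5 from the start, counted with no position 0, and those of Mt1 at -23, 3 and 21. An MRE match was present in 25.7% of all 32851 promoters of this length, and 3 or more were present in 1.97%. Among the 39 promoters of the 28 matched genes, 9 (23.1%) held one, a share near that of all promoters. Gclm also held 3 MRE matches, of which the one at -138 overlapped its ARE match at -134. The ARE core was present in 12.4% of all promoters. It was found in 7 of the 39 promoters (17.9%), those of Nfe2l2, Srxn1, Gclm, Prdx1, Mt2, Sod1 and Txnrd1, the last in 1 of its 3 promoters. Gclc, Hmox1, Sod3, Prdx6 and Gsr had no matched promoter and were not searched. Nqo1 and Gpx8 held neither motif within this window. These are matches of letters only.

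The transcripts differed widely in level, with the peroxide-removing enzymes Gpx4, Gpx3, Cat and Prdx3 at the top per exon length and NAD(P)H quinone dehydrogenase Nqo1 at the bottom. Levels were compared between genes as CPM per kilobase of annotated exon, averaged over the 10 mice. Gpx4, the glutathione peroxidase that reduces lipid hydroperoxides in membranes, was highest at 459 ± 93.9 (SD, n = 10). Gpx3, the secreted plasma glutathione peroxidase, stood at 409 ± 57.9, within the spread of Gpx4. Peroxisomal catalase (Cat) and the mitochondrial peroxiredoxin Prdx3 were alike at 213 ± 39.7 and 213 ± 37.1. These 4 genes were followed by Mt1 at 187 ± 33.8, Prdx5 at 152 ± 24.0 and Gpx1 at 151 ± 28.6.

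**Figure D1:**
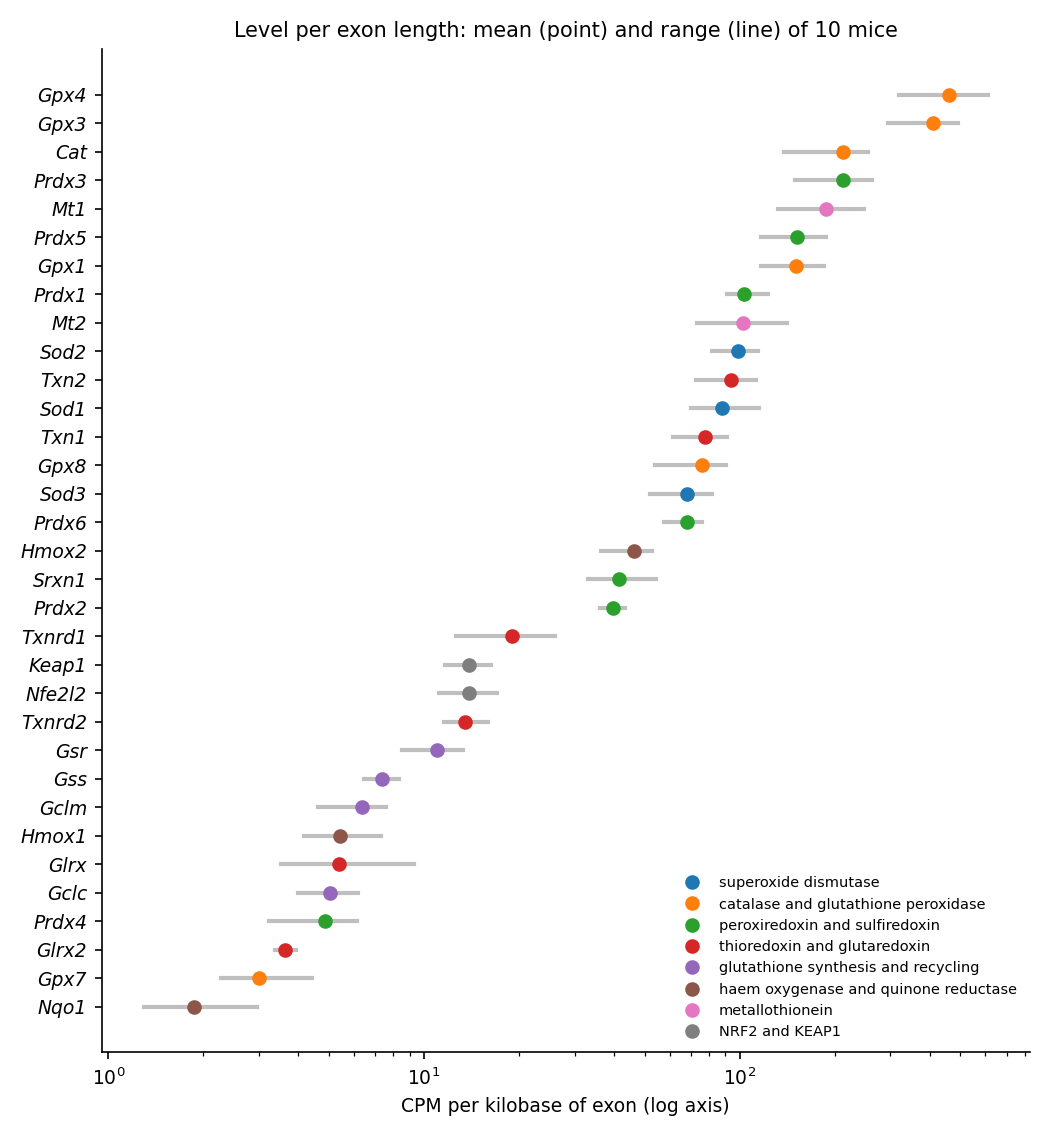
Level of the 33 genes in CPM per kilobase of exon on a log axis. Points are means of 10 mice, lines run from the lowest to the highest mouse and colours give the role of the gene. Gpx4 and Gpx3 lie above all other genes at means of 459 and 409, and Nqo1 lies lowest at 1.87.

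A middle band held cytosolic Prdx1 at 103 ± 10.7 per kilobase, Mt2 at 102 ± 25.6, mitochondrial Sod2 at 98.9 ± 12.1, Txn2 at 94.1 ± 11.3 and cytosolic Sod1 at 88.0 ± 16.7. Their ranges over the mice overlapped, so the order within this band was not larger than the spread between mice. The thioredoxin reductases Txnrd1 and Txnrd2, at 18.9 ± 4.66 and 13.5 ± 1.46, lay below the thioredoxins Txn1 and Txn2 that they reduce (77.5 ± 9.81 and 94.1 ± 11.3). Glutathione synthesis enzymes were low per exon length, with the catalytic and modifier subunits of glutamate-cysteine ligase, Gclc and Gclm, at 5.05 ± 0.861 and 6.34 ± 1.10 and glutathione synthetase Gss at 7.38 ± 0.607. Lowest per exon length were Glrx2 (3.64 ± 0.211), the endoplasmic reticulum peroxidase Gpx7 (3.01 ± 0.678) and Nqo1 (1.87 ± 0.593).

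The order depended on the length used, which was examined after the data were seen. With the median length of the coding transcripts in place of all annotated exons, Gpx3 (894 per kilobase) stood above Gpx4 (825), Sod1 rose from rank 12 to rank 3 (545) and Prdx1 from rank 8 to rank 4 (475), while Cat moved from rank 3 to rank 8 and Prdx3 from rank 4 to rank 11. Gclm, Gss and Glrx2 rose to 39.8, 39.9 and 34.5, while Gclc was at 5.56, so that the nearness of Gclc to Gclm and the low place of Glrx2 hold for exon length alone. Gpx7 and Nqo1 stayed the lowest under both lengths. Summed over the 33 genes per exon length, genes whose products act in the cytosol or nucleus, the metallothioneins, Nfe2l2 and Keap1 included, made up 27.8%, those of several compartments 27.6%, secreted products 17.0%, mitochondrial products 15.1%, peroxisomal Cat 7.6% and products of the endoplasmic reticulum 4.82%. Of all counts, the 33 genes took 0.696 ± 0.037% in ΔGm15551 mice and 0.685 ± 0.032% in wild type mice (n = 5 each, SD), with 0.634 to 0.746% in single mice. The 2 groups overlapped.

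Sequence shared with other annotated genes limits some of these levels. Of the distinct 31-base words of its transcripts, Gpx4 shared 38.9% with other genes, most with the pseudogene Gpx4-ps2, Sod2 shared 26.6% and Prdx1 15.2%, mostly in the same orientation for Gpx4, Sod2 and Prdx1. Of the exon bases of Mt2, 73.5% lie opposite the antisense gene Gm45774, and 40.2% of those of Hmox2 lie opposite Cdip1 and 19.1% of those of Prdx5 opposite Trmt112. Use of the read strand in the counting is not given in the sources used here, so levels of Mt2, Hmox2 and Prdx5 are uncertain to that extent, as are those of Gpx4, Sod2 and Prdx1 through the shared words.

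The main comparison asked whether loss of Gm15551 altered these genes in cold-activated iBAT. No gene of the whole table passed the threshold of 0.05 on the adjusted p from edgeR's quasi-likelihood test (0%, smallest adjusted p = 0.99981 over 13732 genes), and hence none of the 33. The DESeq2 Wald test and limma-voom also gave 0 genes. At an unadjusted p under 0.05, edgeR listed 219 genes (1.59% of those tested), of which 2 were among the 33. No gene of the 33 had all ΔGm15551 mice above all wild type mice (0.226% of all genes tested) or all below (0.0947%). The log2 fold change (log2FC, ΔGm15551 against wild type) was above 0 for 17 of the 33 and below 0 for 16, against 49.7% above 0 among all genes. Its median was 0.0077 over the 33 and -0.00087 over all genes, and the median absolute value was 0.081 and 0.094, respectively.

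The intervals, each for 1 gene and not adjusted for reading 33 of them, show how large a difference could have been missed. From limma-voom, the 95% interval lay within a 2-fold change for all 33 genes and within a 1.5-fold change for 27. The 6 genes with wider bounds were Nqo1, Glrx, Gpx8, Gpx7, Mt2 and Gpx4. The interval was widest for Nqo1 (-0.70 to 0.38 on the log2 scale). Between mice of a group, the SD of log2 CPM had a median of 0.228 over the 33 genes and of 0.269 over all genes tested.

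**Figure D2:**
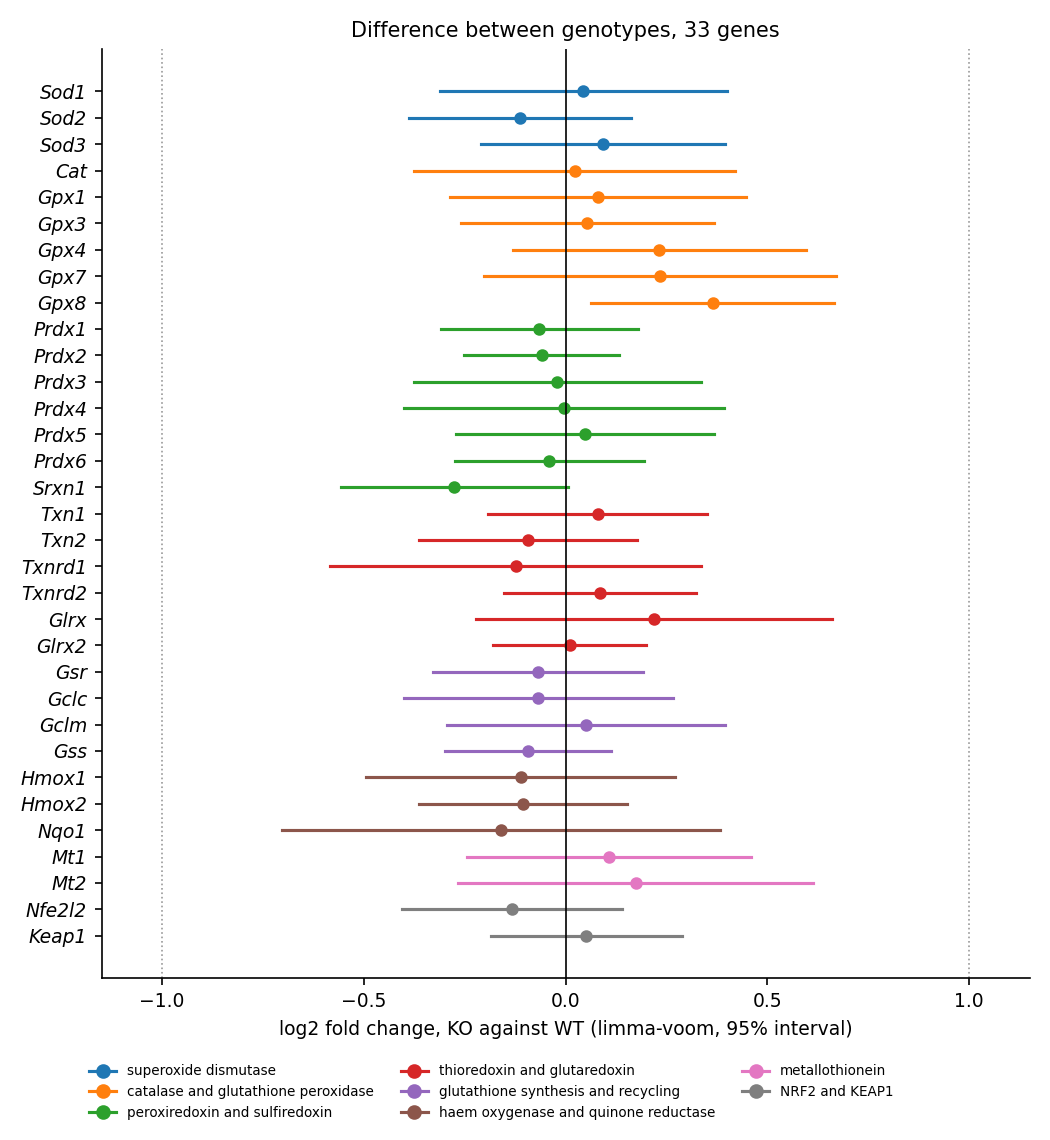
log2FC of the 33 genes between ΔGm15551 (KO) and wild type (WT), with 95% intervals from limma-voom for 5 against 5 mice. Colours give the role and dotted lines mark a 2-fold change. All 33 intervals lie inside the dotted lines, and that of Gpx8 (0.06 to 0.67) is the only one that leaves out 0 before adjustment.

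Among the superoxide dismutases, fitted log2FC values were 0.06 for cytosolic Sod1 (SE 0.17), -0.12 for mitochondrial Sod2 (SE 0.13) and 0.07 for extracellular Sod3 (SE 0.14). The 3 values were smaller than their standard errors. Catalase and the 5 glutathione peroxidases all had values above 0, with a median of 0.16, although none passed the test over all genes. Apart from Gpx8, the values were 0.0077 for Cat (SE 0.18), 0.09 for Gpx1 (SE 0.17), 0.04 for Gpx3 (SE 0.14), 0.24 for Gpx4 (SE 0.17) and 0.24 for Gpx7 (SE 0.20). Cat and Gpx3 took the opposite sign without certain single mice, so that the shared sign of the 6 genes did not hold in every such fit. The log2FC of Gpx7 was 0.097 without ΔGm15551 replicate 1 and 0.32 without ΔGm15551 replicate 4. That of Gpx4 was 0.15 without ΔGm15551 replicate 1 and 0.31 without ΔGm15551 replicate 7. That of Gpx1 was 0.019 without ΔGm15551 replicate 5 and 0.18 without ΔGm15551 replicate 7.

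Gpx8, a peroxidase of the endoplasmic reticulum that acts beside the oxidative folding of proteins, had the smallest unadjusted p of the 33 genes. It measured 94.7, 94.96, 76.6, 87.6 and 89.8 CPM in ΔGm15551 replicates 1, 2, 4, 5 and 7. In wild type replicates 2, 3, 5, 6 and 7 it measured 62.4, 59.9, 56.5, 91.9 and 78.9 CPM. Wild type replicates 6 and 7 thus fell among the ΔGm15551 mice, whereas wild type replicates 2, 3 and 5 lay below all of them. The means were 88.7 ± 7.48 and 69.9 ± 15 CPM (SD, n = 5 each), with a log2FC of 0.34 (SE 0.14, edgeR unadjusted p = 0.0292, adjusted p = 0.99981). The unadjusted p lay between 0.0034 and 0.080 when single mice were left out, above 0.05 in 6 of these 10 fits, and the log2FC between 0.27 and 0.46. Without wild type replicates 5, 6 and 7, whose mouse numbers in the labels belong to a separate higher series, it was 0.54 (unadjusted p = 0.0045, adjusted p = 0.99881).

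**Figure D3:**
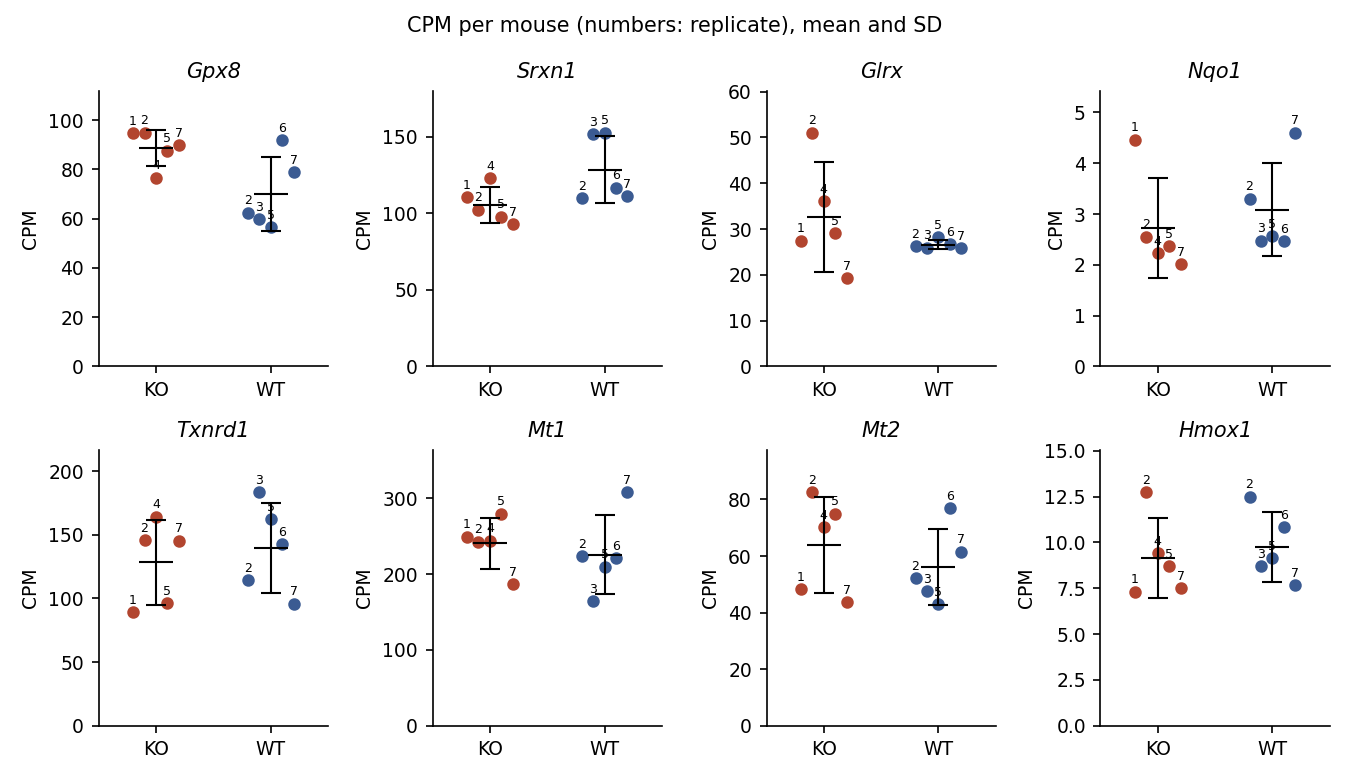
CPM of 8 genes in each mouse, ΔGm15551 (KO, red) and wild type (WT, blue), with replicate numbers, the mean (wide dash) and the SD (error bar) of 5 mice. The groups overlap in each panel, wild type Glrx spans only 25.8 to 28.2 CPM, and Nqo1 stands high in 1 mouse of each group (4.46 and 4.60 CPM).

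The highest genes per length showed larger differences between mice than between groups. Gpx4 measured 1051, 770.2, 749, 1037 and 676 CPM in ΔGm15551 replicates 1, 2, 4, 5 and 7. In wild type replicates 2, 3, 5, 6 and 7 it measured 760, 551, 726, 676 and 919 CPM. ΔGm15551 replicates 1 and 5 and wild type replicate 7 were the 3 highest. Gpx3 measured 763, 889.8, 661, 715 and 730.1 CPM in ΔGm15551. In wild type it measured 834, 533, 660.2, 833 and 792 CPM, in the same order of replicates, and only wild type replicate 3 lay apart, at the low end. Cat measured 407, 610.1, 632, 499 and 639 CPM in ΔGm15551 and 539.8, 668, 588, 617 and 359.6 CPM in wild type. Wild type replicate 7 and ΔGm15551 replicates 1 and 5 were the 3 lowest for Cat, the same mice that were highest for Gpx4.

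Of the peroxiredoxins and sulfiredoxin, 6 of 7 genes had values below 0 with a median of -0.05. The log2FC was -0.06 for Prdx1 (SE 0.12), -0.06 for Prdx2 (SE 0.09), -0.0091 for Prdx3 (SE 0.16), -0.0054 for Prdx4 of the endoplasmic reticulum (SE 0.18), 0.05 for Prdx5 (SE 0.15) and -0.05 for Prdx6 (SE 0.11). Without certain single mice, Prdx3, Prdx4 and Prdx5 took the opposite sign. Prdx2 was among the steadiest of the 33 genes, at 110.2 to 132 CPM over all mice.

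Srxn1, sulfiredoxin, which repairs over-oxidised peroxiredoxins and is a classical NRF2 target, had the other unadjusted p under 0.05. It measured 111, 103, 123, 97.9 and 92.9 CPM in ΔGm15551 replicates 1, 2, 4, 5 and 7 and 110.0, 152, 153, 117 and 111 CPM in wild type replicates 2, 3, 5, 6 and 7. Wild type replicates 3 and 5 were the highest, and the other 3 wild type mice lay within the range of the ΔGm15551 mice. The means were 105 ± 11.8 and 129 ± 21.9 CPM (SD, n = 5 each), with a log2FC of -0.29 (SE 0.13, edgeR unadjusted p = 0.0479, adjusted p = 0.99981). With single mice left out, the value ran from -0.35 (unadjusted p = 0.0275, without ΔGm15551 replicate 4) to -0.22 (unadjusted p = 0.134, without wild type replicate 5), and the unadjusted p was above 0.05 in 6 of these 10 fits.

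In the thioredoxin and glutaredoxin system, 4 of 6 genes had values above 0, a count that moved with the mice used. Glrx2 was below 0 without ΔGm15551 replicate 4 (-0.012), ΔGm15551 replicate 7 (-0.017) or wild type replicate 7 (-0.0072), Txnrd1 was above 0 in the 6 mice with shared numbers (0.056), and Txn2 was above 0 without wild type replicates 5, 6 and 7 (0.0038). The log2FC was 0.08 for cytosolic Txn1 (SE 0.13), -0.09 for mitochondrial Txn2 (SE 0.13), -0.13 for Txnrd1 (SE 0.21), 0.08 for mitochondrial Txnrd2 (SE 0.11), 0.29 for Glrx (SE 0.20, unadjusted p = 0.165) and 0.01 for mitochondrial Glrx2 (SE 0.09). Glrx, the cytosolic glutaredoxin that removes glutathione from proteins, measured 27.4, 51.1, 36.1, 29.2 and 19.3 CPM in ΔGm15551 and 26.3, 26.0, 28.2, 26.7 and 25.8 CPM in wild type. The ΔGm15551 mice lay on both sides of a narrow wild type range, with replicates 2 and 7 at the extremes, and Glrx had the largest fold between the highest and the lowest mouse (2.65) of the 33 genes. Its log2FC was 0.07 (unadjusted p = 0.639) without ΔGm15551 replicate 2 and 0.43 (unadjusted p = 0.0234) without ΔGm15551 replicate 7. Txnrd1, the cytosolic thioredoxin reductase and an NRF2 target, measured 89.3, 146, 164, 96.5 and 146 CPM in ΔGm15551 and 114, 184, 162, 143 and 95.9 CPM in wild type. Its 3 lowest values again came from ΔGm15551 replicates 1 and 5 and wild type replicate 7. Glrx2, in contrast, spanned only 29.6 to 34.5 CPM.

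The enzymes of glutathione synthesis and recycling showed no gene beyond the spread between mice. The log2FC was -0.05 for glutathione reductase Gsr (SE 0.12), -0.07 for Gclc (SE 0.15), 0.06 for Gclm (SE 0.16) and -0.10 for Gss (SE 0.10).

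Of the haem oxygenases and Nqo1, all 3 had values below 0, but Hmox1 turned to 0.0052 without wild type replicate 2 and Nqo1 to 0.014 without wild type replicate 7. Hmox1, the inducible haem oxygenase, measured 7.32, 12.8, 9.43, 8.72 and 7.52 CPM in ΔGm15551 and 12.5, 8.71, 9.14, 10.8 and 7.67 CPM in wild type (log2FC -0.10, SE 0.18). Hmox2, the constitutive form, had a log2FC of -0.10 (SE 0.12). Nqo1, a 2-electron quinone reductase and a standard readout of NRF2, measured 4.46, 2.55, 2.23, 2.37 and 2.01 CPM in ΔGm15551 and 3.31, 2.48, 2.57, 2.47 and 4.60 CPM in wild type (log2FC -0.17, SE 0.26, and -0.42 without ΔGm15551 replicate 1). One mouse of each group, ΔGm15551 replicate 1 and wild type replicate 7, stood above the others, and the SD of log2 CPM over the 10 mice (0.391) was the largest of the 33 genes.

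Both metallothioneins had values above 0, within the spread between mice, and Mt1 lost its sign (-0.00072) without wild type replicate 3. Mt1 measured 249.6, 243, 244, 279.97 and 187 CPM in ΔGm15551 replicates 1, 2, 4, 5 and 7 and 224, 164, 209.97, 221 and 309 CPM in wild type replicates 2, 3, 5, 6 and 7. The highest and the lowest mouse were both wild type. The log2FC was 0.09 (SE 0.16). Mt2 measured 48.4, 82.7, 70.1, 74.9 and 43.7 CPM in ΔGm15551 and 52.2, 47.5, 42.9, 77.0 and 61.5 CPM in wild type, with a log2FC of 0.19 (SE 0.20), which was 0.07 without ΔGm15551 replicate 2 and 0.32 without wild type replicate 6. The values of each group spread over nearly the whole range of the other. In CPM, Mt1 exceeded Mt2 by a ratio of 3.92 ± 0.846 in ΔGm15551 against 4.11 ± 0.927 in wild type mice (n = 5 each, SD, two-sided exact permutation p = 0.802).

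Nfe2l2 and Keap1 did not differ beyond the spread either. Nfe2l2 measured 42.2, 47.8, 57.4, 45.9 and 57.1 CPM in ΔGm15551 and 49.6, 64.7, 60.3, 54.3 and 45.8 CPM in wild type (log2FC -0.13, SE 0.13). Keap1, the sensor that directs NRF2 to degradation, measured 54.7, 72.6, 65.6, 76.4 and 62.8 CPM in ΔGm15551 and 65.8, 56.4, 68.5, 66.8 and 61.6 CPM in wild type (log2FC 0.06, SE 0.11). The ratio of Nfe2l2 to Keap1 was 0.763 ± 0.133 in ΔGm15551 and 0.867 ± 0.165 in wild type mice (n = 5 each, SD, two-sided exact permutation p = 0.294). NRF2 activity is set largely by the stability of the protein, which these data do not measure.

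Of 6 such ratios between partner genes, none differed between genotypes at p under 0.05 (two-sided exact permutation tests, smallest possible p = 0.00794). The smallest p was 0.151, for Txn2 over Txnrd2 at 6.32 ± 0.877 in ΔGm15551 and 7.14 ± 0.967 in wild type (n = 5 each, exact permutation test, 0.667 after Benjamini-Hochberg over the 6). The ratio of cytosolic Sod1 to mitochondrial Sod2 varied over mice from 0.266 to 0.533, with the 3 values above 0.5 in ΔGm15551 replicates 1 and 5 and wild type replicate 7.

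Genes around the 33 were read from 7 lists written by role. They named 162 genes, of which 138 were tested, covering glutathione transferases, other thioredoxin-fold proteins, NADPH supply, NRF2 partners and further targets, metal handling, the selenium pathway and sources of oxidants. None had an adjusted p under 0.05, and 0 had an unadjusted p under 0.05, against 1.59% of all genes. By record (Nnt has 2 in the table), 78 had values above 0 and 61 below. In the list of NRF2 partners and further targets, 20 of 25 had values above 0 with a median log2FC of 0.06. Among all genes tested, 49.7% had values above 0, and the counts per list were not tested. The metal handling list had 14 of 25 above 0 (median 0.02) and the selenium pathway 8 of 18 (median -0.02). The glutathione transferases had 12 of 20 above 0 (median 0.05), the other thioredoxin-fold proteins 11 of 23 (median -0.0016), NADPH supply 8 of 17 records (median -0.0044) and the oxidant sources 7 of 13 (median 0.0090).

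What did separate the 10 mice was a pattern that crossed the genotypes. The 3 mice richest in short transcripts over all genes were ΔGm15551 replicates 1 and 5 and wild type replicate 7. These mice held the 3 highest values of Gpx1, Gpx4, Gpx7, Mt1, Prdx5 and Sod1. They also held the 3 lowest values of Cat, Gclm, Nfe2l2, Prdx3, Sod2 and Txnrd1. These were 6 of the 33 genes in each direction. Among all genes tested, the same mice held the 3 highest values for 9.61% and the 3 lowest for 10.8%. The 6 high genes were among the 13 of the 33 with median coding transcript lengths up to 1000 bases, and the 6 low genes among the 20 with longer ones, a split that rests on where the line is drawn, since the longest of the high genes had 959 bases and Gclm, the shortest of the low genes, had 1002. The remaining genes of either length did not hold this order of mice, among them the short Mt2, Prdx1 and Glrx2 and the long Keap1 and Sod3.

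These 3 mice were defined by their balance of short against long transcripts over all genes, so their difference in it is not a separate result. For the same reason, the split of the high and low genes by length is partly set by the choice of mice. The median deviation of log2 CPM from the gene's mean over the mice, taken for genes with transcripts up to 1000 bases minus that for genes over 4000 bases, was 0.14 and 0.23 in ΔGm15551 replicates 1 and 5 and 0.21 in wild type replicate 7. In the other 7 mice it lay between -0.18 and 0.02, lowest in wild type replicate 3. Red blood cell markers summed to 1785, 1489 and 2570 CPM in these 3 mice and to 648 to 1102 CPM in the other 7. Endothelial markers summed to 1394, 1195 and 1276 CPM against 718 to 1166 CPM. The part of transcript length, blood and endothelial content in the pattern was not tested.

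**Figure D4:**
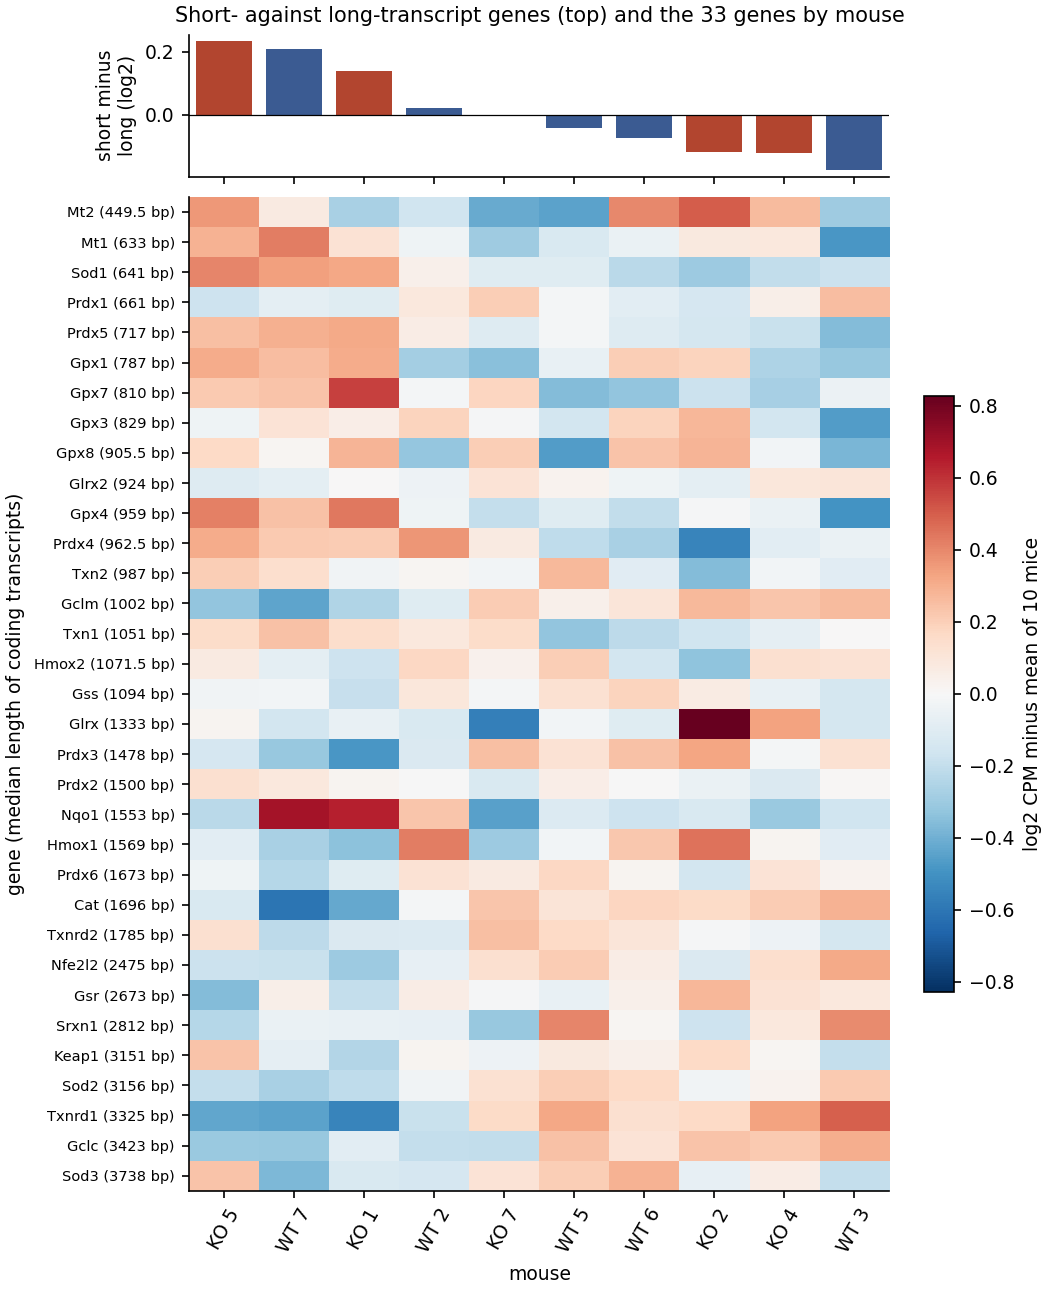
Top, balance of short against long transcripts per mouse (log2), ΔGm15551 (KO, red) and wild type (WT, blue). Bottom, log2 CPM of the 33 genes minus the mean of 10 mice, with mice ordered as on top and genes from short (Mt2) to long (Sod3) transcripts. KO 5, WT 7 and KO 1 on the left share high Sod1, Prdx5 and Gpx4 and low Gclm, Txnrd1 and Cat.

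Relations between partner genes were taken over the 10 mice for 6 pairs. Gclc measured 17.6, 22.1, 21.8, 15.2 and 16.3 CPM in ΔGm15551 and 16.3, 23.2, 22.3, 20.3 and 15.04 CPM in wild type, and Gclm measured 33.1, 47.5, 46.1, 31.4 and 45.5 CPM and 36.7, 47.2, 40.5, 42.1 and 29.1 CPM. The subunits were high and low in largely the same mice, except ΔGm15551 replicate 7 with low Gclc and high Gclm, and gave Pearson r = 0.78 (permutation p = 0.0140, 0.0419 after Benjamini-Hochberg over the 6 pairs) and Spearman rho = 0.75 (permutation p = 0.0167, 0.10 adjusted). As residuals from the group means, r was 0.80 (adjusted permutation p = 0.0265) and rho 0.89 (adjusted permutation p = 0.0070). After a correction for transcript length in each mouse, which was added after seeing the data, r was 0.79 (adjusted permutation p = 0.0309). Without ΔGm15551 replicate 5 and wild type replicate 7, the mice farthest from the median of Gclc, r fell to 0.56 (exact permutation p = 0.144), so that the relation rests in part on those mice.

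Sod2 and Prdx3, which remove superoxide and hydrogen peroxide in the mitochondrial matrix, gave r = 0.77 (permutation p = 0.0100, 0.0419 adjusted) and rho = 0.62 (permutation p = 0.0588, 0.163 adjusted). As residuals, r was 0.80 and rho 0.76 (adjusted permutation p = 0.0265 and 0.0427), and after the length correction r was 0.85 (adjusted permutation p = 0.0128). Without wild type replicates 3 and 7, r was 0.74 (exact permutation p = 0.0373, 0.182 adjusted). Txn1 and Txnrd1 gave r = -0.67 (permutation p = 0.0340, 0.0681 adjusted) and rho = -0.59 (permutation p = 0.0816), and r was -0.42 after the length correction. Mt1 and Mt2 gave r = 0.55 (permutation p = 0.103) and rho = 0.50 (permutation p = 0.143). Txn2 with Txnrd2 gave r = 0.19 and rho = 0.28 (permutation p = 0.608 and 0.425), and Hmox1 with Nqo1 gave r = -0.24 and rho = -0.08 (permutation p = 0.518 and 0.838). These last 3 pairs and Txn1 with Txnrd1 did not pass the adjusted threshold. The 3 mice with the highest endothelial marker sums (1195 to 1394 CPM) held the 3 lowest values of Sod2, Prdx3 and Gclm. Over all mice, Prdx3, Sod2, Gclm and Gclc gave r = -0.94, -0.87, -0.84 and -0.72 with the endothelial sum. With the balance of short against long transcripts, they gave r = -0.74, -0.83, -0.95 and -0.88. The part of endothelial content in the relations was not tested. Pairs of other genes were not taken as a background, so whether the relations are particular to partner genes was not tested.

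**Figure D5:**
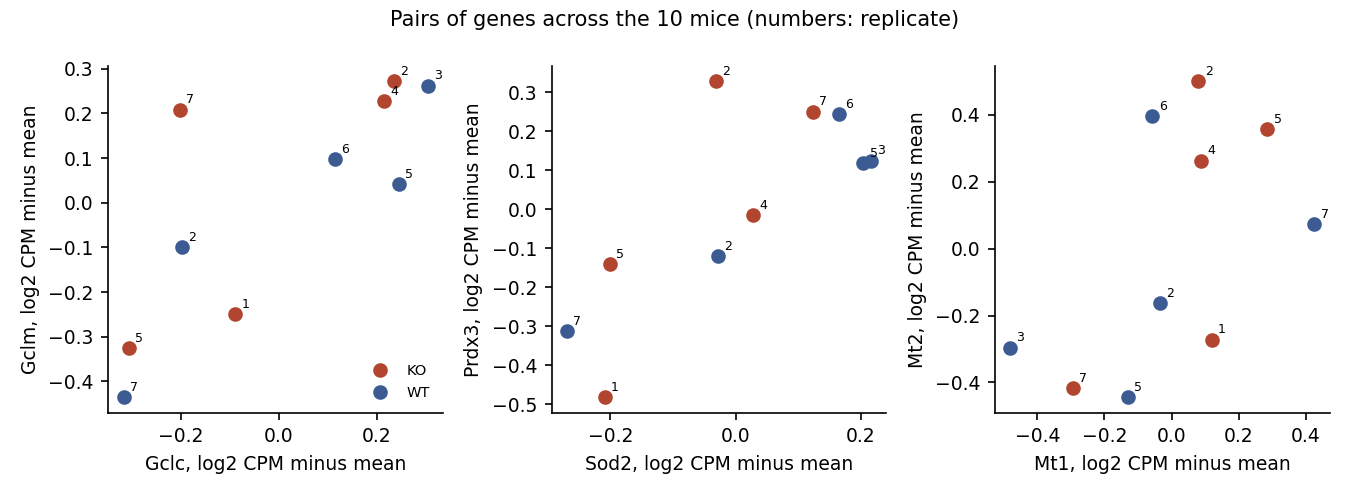
log2 CPM minus the mean of 10 mice for Gclc against Gclm, Sod2 against Prdx3 and Mt1 against Mt2, with ΔGm15551 (KO) in red, wild type (WT) in blue and replicate numbers beside the points. The first pairs run from lower left to upper right (r = 0.78 and 0.77) with both genotypes mixed along the line, and the metallothioneins are more scattered (r = 0.55).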

How the data were processed

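Poly A RNA of iBAT from 10 mice was sequenced in paired-end reads from NEBNext Ultra II libraries. Reads were filtered with cutadapt and quantified with salmon against GENCODE M22 on GRCm38, alone or joined with RNAcentral, by the authors. The deposited values were estimated counts (expected counts) per gene, given as whole numbers in 1 column per mouse and not scaled for depth. Tool versions, the summing to genes and strand use are not given in the sources used here. Each of the 10 column names gave 1 mouse.

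Differences were fitted with edgeR 4.0.16 (R 4.3.3) on the deposited counts. filterByExpr set the genes tested (minimum count 10, minimum total 15), TMM scaled the library sizes, and a quasi-likelihood model with genotype alone was fitted to all genes (robust estimation), with Benjamini-Hochberg adjustment over 13732 genes and a threshold of 0.05. Standard errors were derived from the F statistic. log2 CPM used a prior count of 2. Intervals came from limma-voom (limma 3.58.1). Alternatives to the scaling were library totals or DESeq2 size factors, those to the filter were 1 CPM in 5 mice or none, and those to the test were limma-voom or DESeq2 1.42.0 (Wald). Others were each mouse left out, 6 mice with and without a replicate block, 3 wild type mice left out, and a muscle or red blood cell score as covariate. A per-mouse loess on transcript length (span 0.3) and levels by median coding transcript length were added after seeing the data. Correlations used 100000 resamples. Lengths, positions and 31-base words came from GENCODE M21 on GRCm38, where 99.5% of gene IDs were found, and promoters from RefSeq on GRCm38.p6. The fit was tested on simulated data.

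The 33 genes, the marker and pathway lists and the pairs and ratios were chosen with earlier results of these data known. Values in every mouse were given for Mt1, Mt2, Nfe2l2, Keap1, Hmox1, Nqo1, Srxn1 and Txnrd1, for the 3 genes with the smallest unadjusted p, the 3 with the largest SD over mice and the 3 highest per exon length. Gclc and Gclm were added for the relation they show. Totals of 9680976 to 15771170 counts limit precision most for genes of few counts, and the limit set by a count of 0 covers counting error only. Nothing states that the mice of a group came from separate litters, so p-values measure the spread between these mice.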

Additional observations from a re-analysis of the deposited data

Results flagged for a closer look

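Over the 33 genes, the highest and lowest mouse of each group were compared with the rest of the group by Dixon's ratio. Of 66 groups of 5 mice, 1 had a mouse far from the others, and chance flags about 1 in 20 groups. It was Nqo1 in ΔGm15551 replicate 1, at 4.46 CPM, with the other 4 ΔGm15551 mice at 2.01 to 2.55 CPM (ratio 0.779). Wild type replicate 7 had a value of the same height (4.60 CPM). Leaving out ΔGm15551 replicate 1 gave a log2FC of -0.42 for Nqo1, against -0.17 with all mice, and neither value passed the threshold.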

How the results depend on the processing

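No gene passed the threshold in any of the 22 alternatives run, neither over all genes nor among the 33 or the pathway lists, and the smallest adjusted p over all genes was 0.0615, in the DESeq2 Wald test. The count of the 33 genes at an unadjusted p under 0.05 was 2, and became 1 with library totals alone, no filter, limma-voom, the replicate block, the same 6 mice without the block, or when wild type replicates 5, 6 and 7 (the higher mouse numbers) were left out, and 0 to 2 with single mice left out. The numbers shared by 3 mice of each group did not pair them (correlations of deviations 0.17, -0.22 and -0.10).

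Of the 33 genes, 16 kept the sign of their log2FC in all alternatives and 17 did not, and none of the latter exceeded 0.17 in size. With the replicate block the sign changed for Sod1 (-0.097), Prdx3 (0.25), Prdx5 (-0.12), Txnrd1 (0.071) and Mt1 (-0.062). The same mice without the block gave -0.075, 0.25, -0.11, 0.056 and -0.066 for these genes. Without wild type replicates 5, 6 and 7 it changed for Cat (-0.12), Prdx3 (0.0079), Txn2 (0.0038), Gclm (-0.044) and Glrx2 (-0.023). It also changed for Prdx4 with no filter (0.00040), Prdx3 with the red blood cell score (0.038) and Glrx2 with the length correction (-0.0012). With single mice left out, the log2FC ran from -0.045 to 0.16 for Sod1, -0.0055 to 0.16 for Sod3, -0.11 to 0.10 for Cat, -0.053 to 0.093 for Gpx3, -0.10 to 0.092 for Prdx3, -0.092 to 0.11 for Prdx4, -0.028 to 0.14 for Prdx5, -0.14 to 0.020 for Gsr, -0.14 to 0.0046 for Gclc, -0.033 to 0.13 for Gclm, -0.25 to 0.0052 for Hmox1, -0.42 to 0.014 for Nqo1, -0.00072 to 0.23 for Mt1, -0.00073 to 0.12 for Keap1 and -0.017 to 0.040 for Glrx2. The log2 ratio of Mt1 to Mt2 ran from -0.18 to 0.036. The cause of these changes was not tested.

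Without the 2 farthest mice, r was 0.56 for Gclc with Gclm and 0.74 for Sod2 with Prdx3, and neither passed the adjusted threshold with 8 mice. With 5 mice a group, the 95% interval reached beyond a 1.5-fold change for 6 of the 33 genes, and depth limits Nqo1 and Gpx7 most, at under 6 CPM.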
